A study of Mus musculus with 4 samples.

Results

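The genes described here are those of the cell cycle pathway, the KEGG pathway that holds cyclins, cyclin-dependent kinases and their checkpoints. They were taken as all genes whose pathway annotation in the Rela table names mmu04110, except Smad3, Smad4 and Tgfb2, which left 78 of the 81 pathway genes in that table. These 78 genes had 83 of the 28445 regions in the Rela table, and 28 of them, matched by symbol, had 28 of the 5727 regions in the Kindlin-2 table. Chromatin was profiled by ATAC-seq, where Tn5 transposase inserts adapters into accessible DNA, so that the signal of a region tracks its accessibility. Rela wild-type and Rela knockout cells were 3T3 cells, an immortalized mouse embryo fibroblast line, and Rela encodes p65, a DNA-binding subunit of NF-kB. Kindlin-2 floxed and Kindlin-2 knockout cells were mouse kidney fibroblasts, where floxed alleles carry recombinase sites and serve as the control. All 4 cultures were at passages 15 to 20, with 50000 cells per library. The sources used here do not say how the alleles were deleted or whether a culture was 1 clone.

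The cell cycle is driven by cyclin-dependent kinases (CDKs), which act when bound to a cyclin and are held back by CDK inhibitors and by inhibitory phosphorylation. In G1, the RB family proteins bind E2F factors and keep S phase genes off, and phosphorylation by CDKs releases E2F. The ubiquitin ligases SCF and the anaphase-promoting complex then remove inhibitors, cyclins and securin in order, and the ATM, ATR and p53 pathways stop the cycle when DNA is damaged. Fibroblasts in serum pass through these steps continuously, and many of the genes are transcribed mainly in one phase.

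The tables hold 1 column of normalized signal per genotype, so no difference given here has a replicate check and no test between genotypes was possible. The Rela columns summed to 1386832 in wild-type and 1458609 in knockout cells, and the Kindlin-2 columns to 134996 and 114217 outside the mitochondrial regions. With those regions included, the Kindlin-2 columns summed to 1655317 in floxed and 827408 in knockout cells. The Rela sums were the same with and without them. Whether this difference bears on the Kindlin-2 ratios was not tested. Counts were implied from the spacing of the whole-number values in each column, and the counting intervals given below rest on them and use no pseudocount. The median region stood for about 49.8 implied counts in Rela wild-type and 36.9 in Rela knockout cells, and for about 11.8 in Kindlin-2 floxed cells. The 1 region of Rela, at its promoter, held 21 and 27, values that cannot check a deletion in another part of it, and no region was assigned to Fermt2, the Kindlin-2 gene. Of the fibroblast markers, 6 of 10 had a promoter region in the Rela table, and their signal summed to 286 in wild-type cells and 341 in the knockout. Of these 6, 4 held less signal in the knockout, and 2 held more, S100a4 (46 and 133) and Fbln1 (12 and 29). The leukocyte markers had such a region for 3 of 5 genes, which summed to 32 and 213. Of these, Cd53 held 10 and 155, Laptm5 8 and 46, and Cd68 14 and 12. The epithelial markers had one for 2 of 8, which summed to 10 and 26, and the endothelial markers for 0 of 5. None of these measured markers was at 0, and the part of the leukocyte markers in the results was not tested. In the Kindlin-2 table none of the 4 marker lists had a promoter region, the fibroblast markers included, so the labelled cell type could not be checked there.

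Between Rela wild-type and knockout cells, most cell cycle promoters stayed within 2-fold, and those past it were mainly lower in the knockout. A promoter region had its centre within 2500 bp of the start of its gene, each gene was given by its promoter region with the highest mean signal, and the log2 ratio is log2((knockout + 1)/(control + 1)). On these terms 75 of the 78 genes were measured, 14 were at least 2-fold lower in the knockout, 3 were at least 2-fold higher and 58 lay within 2-fold. The lower genes were Rb1, Cdk1, Cdk2, Cdk7, Ccnb2, Mdm2, Gadd45b, Gadd45g, Smc1a, Cdc14a, Cdc7, Cul1, Ttk and E2f1, and the higher ones were E2f4, Orc6 and Rbl2. Over all 6586 genes with a promoter region, 11.2% were lower and 11.2% higher, against 18.7% and 4% of the cell cycle genes. Their median log2 ratio was -0.13, beside -0.02 for all genes. E2f1, Gadd45g and Ttk stood exactly on the threshold with a log2 ratio of -1, Rbl2 (1.03) and Cul1 (-1.05) just inside it, and Smc3 (-0.95) and Plk1 (0.93) just outside. A 95% interval for counting error alone excluded equal signal for all 17 genes, and with that added condition 11.0% of all genes were lower and 10.9% higher.

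**Figure D1:**
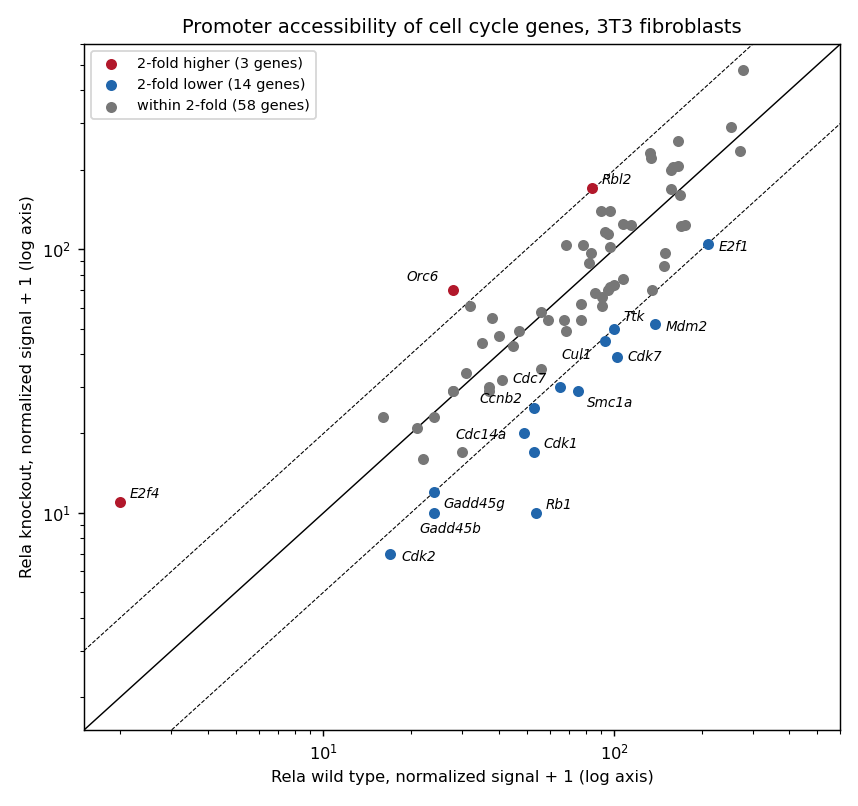
Normalized signal + 1 of the promoter region of each of 75 cell cycle genes in Rela wild-type (x axis) and Rela knockout cells (y axis), both on log axes; each point is 1 gene, the solid line marks equal signal and the dashed lines a 2-fold difference. The 14 blue genes lie on or below the lower dashed line and the 3 red genes on or above the upper one.

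The calls were unevenly spread over the chromosomes. All 3 higher genes lay on chromosome 8, which holds 5 of the 75 genes and whose regions had a median log2 ratio of 0.61. Of all its 429 genes with a promoter region, 0.932% were lower, and the share that was higher was not counted. Of the 14 lower genes, 8 lay on chromosomes 9, 10 and 13, which hold 20 of the 75 genes and were picked as those with more than 1 lower gene. Chromosome 9 had a median of -0.24 and 2 lower genes of 8 (Ccnb2 and Ttk), beside 13.7% of all its genes. Chromosome 10 had a median of -0.58 and 4 lower genes among its 7 cell cycle genes (Cdk1, Cdk2, Gadd45b and Mdm2), while 29.5% of all its genes with a promoter region were lower. For chromosome 13 the median was -0.79, with 2 lower genes of 5 (Cdk7 and Gadd45g), beside 30.1% of all its genes. On chromosome 17, with a median of -0.56, the 1 measured promoter was not lower, beside 19.2% of all its genes. Once each chromosome was centred on its median, 8 cell cycle genes were lower and 1 higher (10.7% and 1.33%, beside 8.40% and 9.31% of all genes). Centred on the 20 nearest regions, 6 were lower and 1 higher (8% and 1.33%, beside 8.52% and 9.90%). Of the 14 lower genes, 5 remained lower under each centring. With chromosomes centred these were Rb1, Cdk1, Cdc14a, Cdc7 and Smc1a, and Ccna2, Cdc23 and Smc3 were newly past 2-fold. With neighbouring regions centred they were Rb1, Cdk1, Cdc14a, Ccnb2 and Mdm2, and E2f5 was newly past it. Rb1, Cdk1 and Cdc14a were thus lower under both centrings and E2f4 was higher under both. Copy number was not measured, so a difference in DNA content of a chromosome and a difference in accessibility cannot be told apart here.

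**Figure D2:**
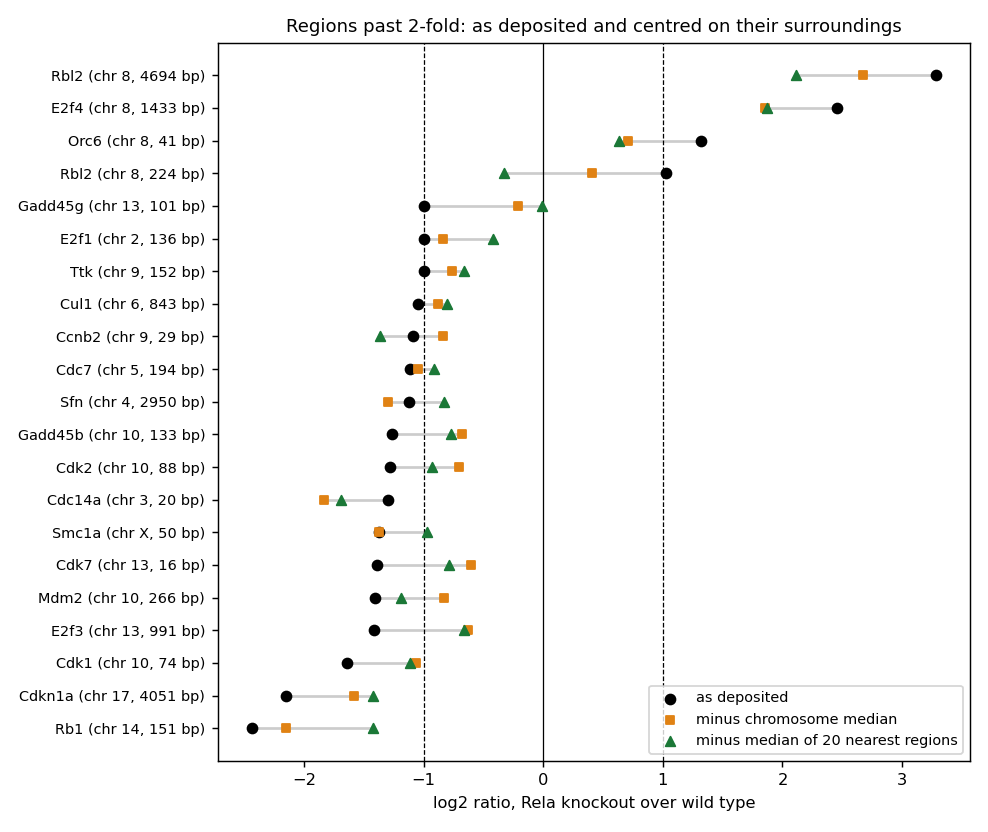
The log2 ratio of Rela knockout over wild type for the 21 regions of cell cycle genes past 2-fold, with the chromosome and the distance from the gene start in brackets; circles show the deposited values, squares the value minus the chromosome median and triangles the value minus the median of the 20 nearest regions. Rb1, Cdkn1a, Cdk1 and Cdc14a stay left of the dashed line at -1 in all 3 versions, and the Rbl2 promoter crosses 0 from 1.03 to -0.33.

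Among the cyclin-dependent kinases, 3 of the 4 measured promoters were lower in the Rela knockout, beside 11.2% of all genes. Cdk1 and Cdk2 lie on chromosome 10 and Cdk7 on chromosome 13, where 29.5% and 30.1% of all genes with a promoter region were lower. Cdk1, the kinase that drives entry into mitosis, gave 52 in wild-type cells and 16 without Rela, a 3.25-fold difference (counting interval 1.88 to 5.81). Its region (chr10:69352830-69353194) covers the gene start, and its log2 ratio of -1.64 became -1.06 with the chromosome centred and -1.11 with neighbouring regions centred. Cdk7, the catalytic subunit of the kinase that activates other CDKs, held 101 and 38, a 2.66-fold difference (1.87 to 3.88). Cdk2, which acts with cyclins E and A in S phase, held 16 and 6, a difference of 2.67-fold with a wide interval (1.09 to 8.28). The Cdk7 and Cdk2 ratios were within 2-fold under either centring. Cdk4, the kinase of D-type cyclins in G1, was the 1 measured kinase without a difference in value, with 20 in both genotypes.

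Among the cyclins, 1 of 7 measured promoters was past 2-fold. Ccnb2, a mitotic cyclin that partners Cdk1, held 52 in wild-type cells and 24 in the knockout, a 2.17-fold difference (1.38 to 3.59). Its log2 ratio of -1.08 was -0.84 with the chromosome centred and -1.36 with neighbouring regions centred. The promoter of the other B-type cyclin, Ccnb1, held 76 and 53, and that of the S phase cyclin Ccna2 held 169 and 121, both within 2-fold. With the chromosome centred, Ccna2 was past it (-1.01) and Ccnb2 was not, so that each centring left 1 cyclin and 1 kinase lower. Ccne2 and Ccne1, cyclins of the G1 to S transition, held 133 and 220, and 96 and 101, so the log2 ratios of the cyclins ran from -1.08 to 0.72. Ccnh, the cyclin of Cdk7, held 96 and 71, and the D-type cyclin Ccnd2 held 94 and 113.

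The promoters of Cdk1 and Ccnb2 are printed because both genes act together at mitosis and both were lower. The windows run from 250 bases before to 50 after the RefSeq start (build GRCm38.p6), on the minus strand at chr10:69352863-69353162 and chr9:70421505-70421804. Capitals mark the motifs searched on both strands: the E2F sites TTTGGCGC, TTTCCCGC, TTTCGCGC and TTTGCCGC, the CCAAT box, the CHR element of late cell cycle genes (TTTGAA or TTCGAA), and the NF-kB consensus by its name.
Cdk1: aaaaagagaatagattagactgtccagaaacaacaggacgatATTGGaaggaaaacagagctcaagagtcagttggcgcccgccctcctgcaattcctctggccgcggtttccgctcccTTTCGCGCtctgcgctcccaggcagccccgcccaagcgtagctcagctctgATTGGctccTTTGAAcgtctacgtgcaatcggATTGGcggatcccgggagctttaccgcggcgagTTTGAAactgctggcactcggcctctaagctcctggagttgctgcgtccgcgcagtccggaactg
Ccnb2: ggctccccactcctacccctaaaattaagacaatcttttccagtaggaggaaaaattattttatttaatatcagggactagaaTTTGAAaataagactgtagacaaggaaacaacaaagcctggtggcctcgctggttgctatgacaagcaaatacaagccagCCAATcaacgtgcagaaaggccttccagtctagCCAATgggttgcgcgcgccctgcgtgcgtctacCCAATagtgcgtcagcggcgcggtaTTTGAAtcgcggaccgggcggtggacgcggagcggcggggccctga
Each window holds 3 CCAAT boxes and 2 CHR matches, at -71 and -15 from the start in Cdk1 and at -167 and 4 in Ccnb2, and the Cdk1 window holds 1 E2F match at -131. None of these matches overlap. The Cdk1 region (52 and 16) and the Ccnb2 region (52 and 24) overlap these windows.

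E2F sites stood in a larger share of cell cycle windows than of other windows, and lower genes were found with and without them. Of the 78 genes, 60 had an entry in the promoter table, and 57 of the 75 measured genes were given the window nearest their region, which need not overlap it. E2F sites were in 22.8% of the 57 windows, beside 4.32% of the 4997 windows of other genes with a promoter region and 2.26% of all 32851 windows. CHR matches were in 28.1% of them, beside 12.7% of other genes with a promoter region and 19.2% of all windows, and CCAAT boxes in 57.9%, beside 44.1% and 37.4%. The NF-kB consensus was in 2 of the 57 windows (3.51%), beside 4.84% and 4.51%; these 2 genes, Atr (27 and 28) and Fzr1 (67 and 48), were both within 2-fold. Of 13 cell cycle genes with an E2F site 3 were lower, and of 44 without one 10 were lower and 2 higher. Among other genes, 26 of 216 with an E2F site were lower and 14 higher. Without one, 530 of 4781 were lower and 515 higher. Of 16 genes with a CHR match 4 were lower and 1 higher, and of 41 without one 9 were lower and 1 higher. Among other genes with a CHR match, 75 of 633 were lower and 77 higher. The median GC content was 62% in the cell cycle windows and 62.3% in those of other genes with a promoter region.

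Genes of the RB and E2F group held both extremes. The promoter of Rb1 (ENSMUSG00000022105), the retinoblastoma gene whose product restrains E2F, held 53 in wild-type cells and 9 in the knockout. This 5.89-fold difference (3.12 to 14.1) gave the lowest log2 ratio of the 75 promoters, at chr14:73325705-73326240, and its log2 ratio of -2.43 became -2.15 and -1.42 under the chromosome and neighbour centrings. Rbl2, the RB family member p130, held 83 and 170 at its promoter and 3 and 38 at a second region 4694 bp upstream. The upstream region had a ratio of 12.7 (5.02 to 53.5) and a log2 ratio of 2.11 after neighbour centring, whereas the promoter went from 1.03 to -0.33. E2f4, the E2F factor that works mainly as a repressor with the RB family, had 1 region of 194 bp inside the gene, 1433 bp from its start, with 1 and 10 (ratio 10, interval 2.22 to 658). This value rests on about 1.46 implied counts in wild-type cells.

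Of the activating E2F genes, E2f1 was past 2-fold at its promoter and E2f3 at the weaker of its regions. E2f1 held 209 and 104 at its promoter, a 2.01-fold difference (1.61 to 2.51), and 29 and 32 at a region 2320 bp upstream. Once the neighbouring regions were centred the log2 ratio of the promoter went from -1 to -0.42. E2f3 had a region on either side of the gene start given in the table: the E2f3 region 651 bp upstream held 149 and 96, and the one 991 bp downstream held 55 and 20, differences of 1.55-fold (1.22 to 1.99) and 2.75-fold (1.70 to 4.72). E2f3 is transcribed from an upstream and an intronic start that give the E2F3a and E2F3b proteins. Each region covers 1 of 2 RefSeq starts of E2f3, whose windows (minus strand, chr13:29986014-29986313 and chr13:29984342-29984641) are printed to show how they differ.
E2f3 upstream start: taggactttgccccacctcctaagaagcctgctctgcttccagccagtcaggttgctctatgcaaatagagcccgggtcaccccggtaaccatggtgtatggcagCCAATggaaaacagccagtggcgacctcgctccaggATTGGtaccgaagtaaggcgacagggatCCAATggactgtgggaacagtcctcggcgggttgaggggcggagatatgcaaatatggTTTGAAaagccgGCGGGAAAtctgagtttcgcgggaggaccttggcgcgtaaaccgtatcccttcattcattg
E2f3 downstream start: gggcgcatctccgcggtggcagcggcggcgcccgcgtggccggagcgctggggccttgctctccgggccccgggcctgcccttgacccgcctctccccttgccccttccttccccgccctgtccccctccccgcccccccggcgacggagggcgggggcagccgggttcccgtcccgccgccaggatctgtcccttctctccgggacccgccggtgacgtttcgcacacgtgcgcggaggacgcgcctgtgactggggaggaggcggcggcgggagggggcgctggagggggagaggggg
The upstream window has a GC content of 55.3%, with 3 CCAAT boxes, 1 E2F match and 1 CHR match, and the downstream window has 78.7% and none of the motifs searched. The weaker region at the downstream start had the larger difference. Chromosome centring brought the downstream region within 2-fold, from a log2 ratio of -1.42 to -0.63. The upstream region, within 2-fold as deposited, went from -0.63 to 0.16. E2f5 held 165 and 257, and its 20 nearest regions had a median log2 ratio of 3.62, so that its own log2 ratio of 0.64 became -2.98 when centred on them. The histone deacetylase genes Hdac1 (55 and 34) and Hdac2 (90 and 60), whose products are recruited by RB, and the E2F partner genes Tfdp1 (23 and 22) and Tfdp2 (77 and 103) lay within 2-fold.

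**Figure D3:**
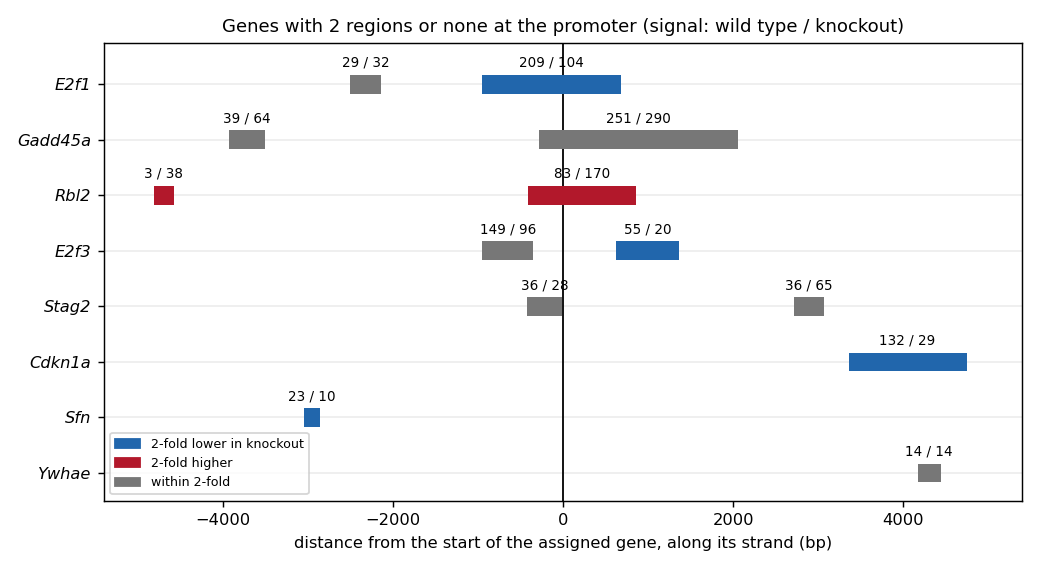
Position and width of the regions of 8 cell cycle genes with 2 regions or with no region at the promoter, as the distance in bp from the start of the gene along its strand; numbers give the signal in Rela wild-type and knockout cells, and colour the call. The downstream E2f3 region (55 and 20) and the Cdkn1a region (132 and 29) are 2-fold lower, and the upstream Rbl2 region (3 and 38) is higher.

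Within the DNA damage and p53 group, 3 of 8 measured promoters were lower (Mdm2, Gadd45b and Gadd45g), beside 11.2% of all genes. These 3 lie on chromosomes 10 and 13, and 0 of the 8 were lower with chromosomes centred. The log2 ratios of Mdm2 and Gadd45b were then -0.83 and -0.68. With neighbouring regions centred they were -1.19 and -0.77, and Mdm2 alone was lower. Mdm2, the ubiquitin ligase that removes p53 and is itself a p53 target, held 137 and 51, a 2.69-fold difference (1.97 to 3.69). The region (chr10:117709909-117711074) is 1165 bp wide and reaches from the promoter into the gene, whose window on the minus strand (chr10:117710709-117711008) is printed as that of the promoter with the lowest log2 ratio in this group.
Mdm2: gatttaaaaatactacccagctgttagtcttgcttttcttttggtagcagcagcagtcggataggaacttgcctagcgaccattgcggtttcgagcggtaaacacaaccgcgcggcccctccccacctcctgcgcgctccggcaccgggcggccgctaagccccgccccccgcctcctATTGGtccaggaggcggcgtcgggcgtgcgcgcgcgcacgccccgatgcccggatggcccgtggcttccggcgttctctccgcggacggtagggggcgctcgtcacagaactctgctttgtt
It holds 1 CCAAT box and none of the other motifs searched. Gadd45b, an NF-kB target that encodes a stress sensor, held 23 and 9, and its relative Gadd45g held 23 and 11, whereas Gadd45a, a p53 target, held 251 and 290. Gadd45g differed from its 20 nearest regions by a log2 ratio of only -0.01. The kinase genes Atm (174 and 122), Atr (27 and 28), Chek1 (167 and 159) and Chek2 (94 and 69) were all within 2-fold.

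Away from promoters, the lowest log2 ratio was at Cdkn1a, which encodes the CDK inhibitor p21, a main p53 target. Its 1 region (chr17:29094337-29095722) held 132 in wild-type cells and 29 in the knockout, a 4.55-fold difference (3.06 to 6.78). Over all regions of the table, 21.0% were lower and 22.4% higher. The table places it 4051 bp from the gene start, but its centre lies 1260 bp downstream of a second RefSeq start at 29093769. Its log2 ratio of -2.15 became -1.58 with the chromosome centred and -1.42 with neighbouring regions centred. The other CDK inhibitors measured, Cdkn1b (p27, 81 and 88) and Cdkn2b (p15, 46 and 48), had near equal signal. Sfn, which encodes the 14-3-3 protein sigma, another p53 target, held 23 and 10 at a region 2950 bp upstream. A second list, of p53 targets outside the pathway, had 8 of 11 genes measured at promoters. There 1 was higher (Pmaip1, 0 and 14) and 0 lower, beside 11.2% each way over all genes, and the median log2 ratio was 0.69. All 8 had a log2 ratio above 0, beside 3148 of all 6586 genes. Since Cdkn1a and Sfn were below 0, the regions of p53 target genes lay on both sides of equal signal.

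Among origin licensing and firing genes, 1 of 12 measured promoters was 2-fold higher and 1 was 2-fold lower, with a median log2 ratio of 0.17. Of the 12, 9 had a log2 ratio above 0, beside 3148 of all 6586 genes, and 7 had one under either centring. Orc6, a subunit of the origin recognition complex, held 27 and 69, a ratio of 2.56 (1.70 to 3.83), and after chromosome and neighbour centring its log2 ratio of 1.32 was 0.71 and 0.63. Its window (plus strand, chr8:85299382-85299681) is printed as that of the only higher gene whose ratio at the gene start stayed above 0 under both centrings.
Orc6: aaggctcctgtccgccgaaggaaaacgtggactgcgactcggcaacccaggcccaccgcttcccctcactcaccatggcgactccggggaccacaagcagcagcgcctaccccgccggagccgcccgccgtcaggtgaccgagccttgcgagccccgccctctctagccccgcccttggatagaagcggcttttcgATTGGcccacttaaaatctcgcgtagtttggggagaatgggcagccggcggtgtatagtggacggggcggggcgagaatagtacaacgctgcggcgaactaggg
It holds 1 CCAAT box and no E2F site. By contrast, Cdc7, the kinase that fires licensed origins, held 64 and 29 (2.21-fold lower, 1.44 to 3.39), while Dbf4, its activating subunit, held 89 and 139. The subunit genes of the MCM helicase all stayed within 2-fold, with 82 and 96 for Mcm3, 132 and 230 for Mcm5, 156 and 199 for Mcm6, and 21 and 15 for Mcm2. Mcm3, Mcm5 and Mcm6 held 2, 2 and 3 E2F sites in their windows.

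In the chromosome segregation groups, all 6 measured genes of cohesin, securin and mitotic exit had a log2 ratio below 0, beside 3336 of all 6586 genes. With neighbouring regions centred 5 of the 6 were below 0, and Rad21 was above it (0.17). Smc1a, a core cohesin subunit on chromosome X, held 74 and 28, a 2.64-fold difference (1.72 to 4.02), and Cdc14a, a phosphatase of mitotic exit, held 48 and 19 (2.53-fold, 1.51 to 4.37). Smc3, the partner of Smc1a, held 134 and 69, just within 2-fold and past it with the chromosome centred (-1.19), while the cohesin gene Rad21 held 44 and 42. Cdc14a lies on chromosome 3, where the median was 0.53, so its log2 ratio of -1.29 became -1.83 with the chromosome centred. Stag2 held 36 and 28 at its promoter and 36 and 65 at a region 2889 bp downstream. Ttk, the spindle checkpoint kinase, held 99 and 49, Plk1, a mitotic kinase, 31 and 60, and Mad2l1, which inhibits the anaphase-promoting complex, 269 and 234.

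Among the promoters of the remaining groups only that of Cul1 was past 2-fold. Of the 2 measured SCF genes, the scaffold Cul1 held 92 and 44 (2.09-fold lower, 1.5 to 3.02) and the RING subunit Rbx1 held 106 and 76. All 6 measured genes of the anaphase-promoting complex were within 2-fold, from Cdc23 (29 and 16, with a log2 ratio of -1.06 once the chromosome was centred) to Anapc4 (106 and 124), as were all 5 phosphatase and kinase genes that set CDK phosphorylation, from Pkmyt1 (147 and 85) to Cdc25c (39 and 46). The 14-3-3 genes, with 5 measured promoters, had a median log2 ratio of 0.31, led in signal by Ywhaq (165 and 205), and the one region of Ywhae, 4305 bp from its start, held 14 in both genotypes. The growth inputs Myc (96 and 139), Gsk3b (277 and 475), Abl1 (34 and 43) and Smad2 (158 and 204) had log2 ratios above 0 but within 2-fold, and 3 of these 4 were above 0 with neighbouring regions centred. Gsk3b had the highest mean signal of the 75 promoters.

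**Figure D4:**
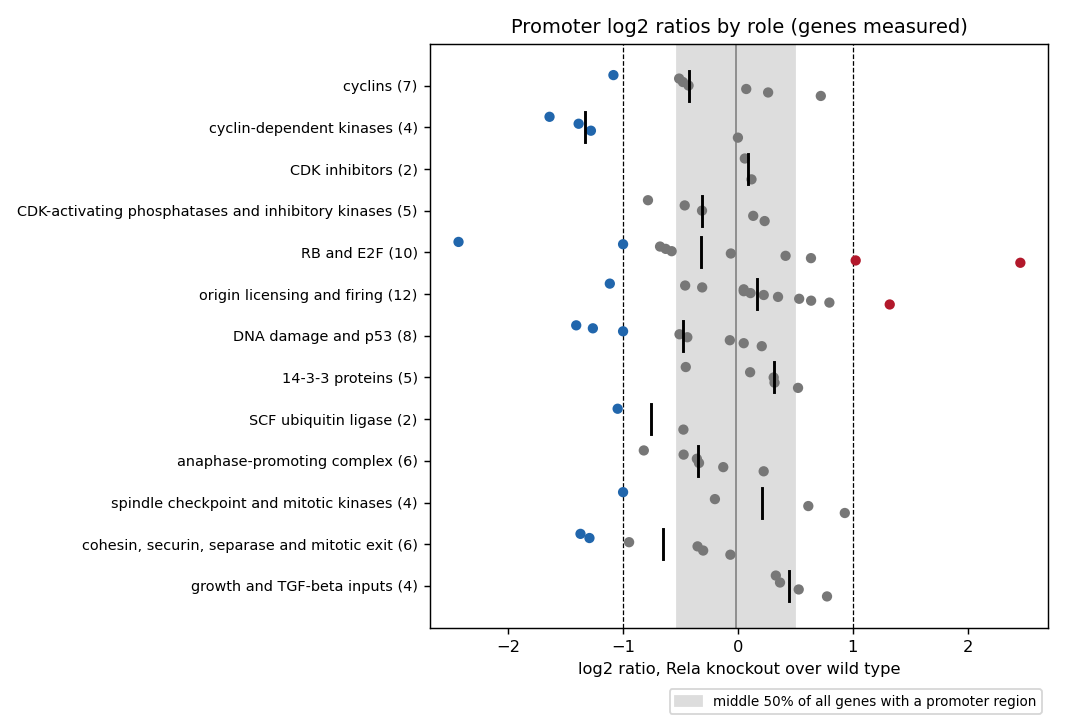
Promoter log2 ratio of Rela knockout over wild type for the 75 measured cell cycle genes by role, with the number of genes measured in brackets; each point is 1 gene, black bars are group medians, the grey band is the middle 50% of all genes with a promoter region, and dashed lines mark 2-fold. In these deposited values the kinases (median -1.33) lie lowest and the growth inputs (median 0.45) highest, and RB and E2F spans the widest range (-2.43 to 2.46). The order of the groups is not corrected for chromosome or neighbouring regions. With either centred, 1 of the 4 kinases was 2-fold lower.

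Cell cycle genes outside the pathway were also mostly within 2-fold. Of 16 measured promoters of DREAM, MuvB and other late cell cycle genes, 3 were lower (Cenpe, 64 and 24; Kif23, 47 and 18; Tpx2, 54 and 25) and 1 was higher (Mki67, 10 and 22), with a median of -0.07. These encode a kinetochore motor, a cytokinesis motor, a spindle assembly factor and the proliferation antigen Ki-67. Of 17 measured replication and G1/S genes, only Rfc3, a clamp loader subunit (96 and 47), was past 2-fold, and the median was -0.17. Over all genes with a promoter region 11.2% were lower and 11.2% higher.

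Cell cycle promoters were strong regions close to the gene start. Of their 83 regions in the Rela table, 64 (77.1%) were centred within 300 bp of the start, beside 61.1% of the 8002 regions with a gene symbol. The median of the mean signal was 74 over the 75 genes and 58 over other genes with a promoter region, and 18 of the 75 regions (24%) were at least 1000 bp wide, beside 14.9%. When all genes with a promoter region were ranked by signal into 4 equal bins, 25 of the 75 fell in the strongest bin, where 8.74% of all genes and 2 of these 25 (E2f1 and Rbl2) were past 2-fold. In the weakest bin 40.8% of all genes and 5 of 15 cell cycle genes were past it. Of the 122 genes in the role list, 43 had no region in the Rela table, among them Trp53, Ccnd1, Cdk6 and Cdkn2a, and nothing is said of those.

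In the kidney fibroblasts, 28 of the cell cycle genes were measured, all at promoters, and 6 were lower without Kindlin-2 and 2 higher. These shares of 21.4% and 7.14% stood beside 11.0% and 8.26% of the 2361 genes with a promoter region in that table, and the median log2 ratio was -0.21, beside -0.17. The lower genes were Atm, Anapc4, E2f5, Ccne2, Ccna2 and Hdac2, and the higher ones Cdc25c and E2f1. Ccna2 held 64 in floxed cells and 28 in the knockout (2.29-fold, 1.4 to 3.79), and Ccne2 held 48 and 20 (2.4-fold, 1.34 to 4.35). E2f5, which acts with the RB family as a repressor, held 78 and 31, a 2.52-fold difference (1.59 to 4.01). The lower genes included cyclins E2 and A2, whereas Ccnb1 (12 and 13) and the E2f3 promoter (26 and 24) were near equal.

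Atm, the kinase that signals DNA breaks, held 37 and 14 (2.64-fold, 1.33 to 5.41), and Anapc4 held 34 and 13 (2.62-fold, 1.29 to 5.57). Hdac2 held 31 and 15, on the threshold with a log2 ratio of -1. Cdc25c, the phosphatase that activates Cdk1 at mitosis, held 1 and 15, a ratio of 15 (1.70 to 464) that rests on 1 implied count in floxed cells. E2f1 held 7 and 16, with an interval that includes equal signal (0.824 to 8.21). Where the interval had to exclude equal signal, 6 cell cycle genes were lower and 1 higher, beside 8.73% and 3.39% of all genes in that table. Loess centring, which removes the trend of the log2 ratio with signal, left Atm and Anapc4 lower and Cdc25c higher. It brought the other 5 within 2-fold, E2f5 to a log2 ratio of -0.85 and Ccna2 to -0.76. The shares after loess centring, 7.14% lower and 3.57% higher, stood beside 9.91% and 4.79% of all genes in that table. Outside the pathway, none of 5 measured late cell cycle genes was past 2-fold, and of 9 replication and G1/S genes 1 was higher (Gins3, 3 and 12) and 1 lower (Pole, 34 and 6). Of 4 measured p53 targets, Sesn1 (34 and 16) was lower.

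None of the 28 genes was 2-fold lower in both tables or 2-fold higher in both, beside 17 and 14 of all 2131 genes with a promoter region in both, so a count of 0 is near the background. E2f1 was lower without Rela (209 and 104) and above its control without Kindlin-2 (7 and 16), and Ccne2 and E2f5 were above wild type without Rela (133 and 220, 165 and 257) and lower without Kindlin-2. Of the 28, 14 had log2 ratios of opposite sign in the tables, 9 were below 0 in both and 4 above 0 in both. Over the 2131 genes these counts were 1023, 604 and 389, so the cell cycle genes lay near the background here too. Across these 28 genes Pearson's r was -0.04 and Spearman's rho -0.02, and across the 2131 genes with a promoter region in both tables they were 0.00 and 0.01. The tables have no library in common but are normalized separately, so only ratios within a table were set side by side. The difference between the knockouts was not tested. Genes measured in both tables had a median wild-type signal of 119 in 3T3 cells, and cell cycle genes of the Rela table alone had 55, so the Kindlin-2 table covers the stronger promoters. Of the 5 genes Rb1, Cdk1, Mdm2, E2f3 and Ccnb2, E2f3 alone had a region there.

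**Figure D5:**
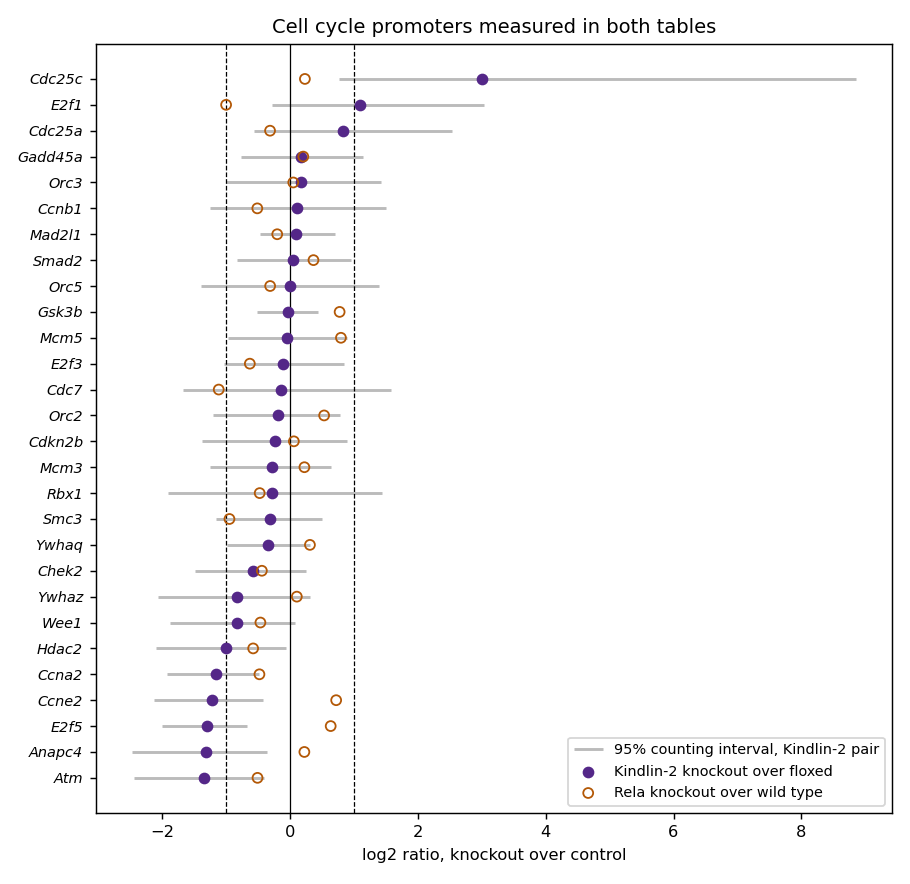
The log2 ratio of knockout over control at the promoters of 28 cell cycle genes measured in both tables; filled points are Kindlin-2 knockout over floxed, open points Rela knockout over wild type, and grey lines 95% intervals for counting error of the Kindlin-2 ratio, taken without the pseudocount. No gene has both points beyond the same dashed line at 2-fold, and 14 genes have them on opposite sides of 0, among them E2f1, Ccne2, E2f5 and Anapc4.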

How the data were processed

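The authors deposited 1 table of ATAC-seq regions per knockout, with 1 value column per genotype and the gene assigned to each region. The values are a score: background-corrected signal, scaled by the DESeq method within its table, per the labels, and written as whole numbers. They are called normalized signal here and are not counts. Per the submitters' processing notes, which give no role or order, the tools were STAR 2.4.2a, Trimmomatic 0.33, MACS2, Picard 1.136, bedtools, DESeq2, FastQC and deepTools, with build mm10. Whether reads were shifted for Tn5 and how duplicates were treated is not given there. The submitters mention 2 biological replicates for each genotype without saying how these were combined. Regions are printed with the coordinates of the tables (mm10; whether starts count from 0 or 1 is not stated).

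With 1 column per genotype, the planned limma fit could not be run, and values are described without a test. Regions entered with a mean of both columns of at least 1, the pseudocount was 1, and a 2-fold difference was called. The 20 nearest regions on the chromosome gave the neighbour centring. Counting intervals (exact Clopper-Pearson, 95%) used counts implied by the factor that best explained gaps or excesses among whole values: 0.683 for Rela wild type, 0.949 for Rela knockout and 1.36 for Kindlin-2 floxed. No factor explained enough for Kindlin-2 knockout (43.5% of the deviance at best, below the minimum of 80%), where 1 was used. Intervals cover counting error only, not the spread between cultures. The steps were tested on simulated data. The genes named are all members past 2-fold in either table, Rb1, Cdk1, Mdm2, E2f3 and Ccnb2, the strongest promoter of each role group and genes measured in both tables; some others, within 2-fold, were chosen after their values were seen. The members, roles and lists were chosen with earlier results of these data known. Python 3.11.15, pandas 2.3.3, scipy 1.17.1 and statsmodels 0.14.6 were used.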

Additional observations from a re-analysis of the deposited data

How the results depend on the processing

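No paired analysis was possible because each genotype has 1 column, so no replicate could be left out either. In the Rela table, 14 cell cycle genes were lower as deposited and 8 with a pseudocount of 5 (10.7%, beside 8.79% of all genes). With chromosomes centred 8 were lower (5 of the 14 and 3 others: Ccna2, Cdc23 and Smc3). With neighbouring regions centred 6 were lower (5 of the 14 and E2f5). Of the 3 higher genes, E2f4 was the 1 left under either centring. Under the other alternatives tried there were 11 to 16 lower and 2 or 3 higher genes. The Rbl2 promoter changed sign, to a log2 ratio of -0.33, with neighbouring regions centred. In the Kindlin-2 table, the 6 lower genes of 28 became 2 of 28 with loess centring (7.14%, beside 9.91% of all genes). They became 3 of the 19 genes still measured when a region had to overlap a RefSeq promoter window (15.8%, beside 10.9%). The 2 higher genes became 1 with a pseudocount of 5, a mean signal of at least 10, loess centring or an interval excluding equal signal, and 0 with RefSeq windows. With chromosomes centred, 4 Kindlin-2 genes were lower and 2 higher (14.3% and 7.14%, beside 10.0% and 6.86% of all genes). With neighbouring regions centred, 7 were lower and 3 higher (25% and 10.7%, beside 10.7% and 7.41%). The Kindlin-2 median of -0.21 became -0.06 when centred on all promoters and -0.05 with loess centring; the share of higher regions among all calls was 43% as deposited, 58.5% when centred on all promoters and 32.6% with loess centring. The RefSeq windows and the interval rule were chosen after seeing the data, and the cause of these shifts was not tested. About 11.8 implied counts per median region limit the Kindlin-2 floxed values.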
